A study of Mus musculus with 10 samples.

Results

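Amacrine cells are the inhibitory interneurons of the inner retina, and 9 genes that make or move their transmitters were followed in retinas injected with 1 of 2 viral vectors. The genes were taken by symbol from the count table, where all 9 were found among 57010 listed genes. They cover GABA (Gad1, Gad2, Slc32a1), glycine (Slc6a9, Slc6a5), acetylcholine (Chat, Slc18a3, Slc5a7) and dopamine (Th).

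Bulk RNA sequencing was done on retinas of mice aged 6 to 8 weeks, 14 days after an injection into the vitreous, with 5 mice in each group. The AAV2-GFP group received green fluorescent protein (GFP) in an adeno-associated virus of the AAV2 capsid, which is widely used for the inner retina. The AAV206-GFP group received GFP in the AAV206 capsid, which the study's title presents as specific to the retinal pigment epithelium. Both groups therefore carried an injection, a virus and GFP, and uninjected retinas were not analysed here. The strain, the sex and the promoter driving GFP are not given in the sources used here.

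As background, most amacrine cells release either GABA or glycine, and some add a second transmitter. Glutamate decarboxylase makes GABA from glutamate, and a shared vesicular transporter loads GABA or glycine into synaptic vesicles. Starburst amacrine cells release acetylcholine together with GABA and serve direction selectivity, while a sparse class of dopaminergic amacrine cells signals light adaptation. Each of these steps depends on a gene of the set, and several of the genes are used as markers of the cells.

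Total counts lay between 10989843 and 12752604 per library. Levels are given as CPM, counts scaled to a common library total, and 3 counts, taken as the lower limit of what can be told from 0, correspond to 0.232 to 0.274 CPM for counting error only. AAV2-GFP replicate 1 stood apart in immune genes. The summed level of 8 microglia and macrophage markers was 185 CPM in it, against 22.6 to 39.1 CPM in replicates 2, 3 and 5 and 32.3 CPM in replicate 4. For 8 T and NK lymphocyte markers it was 15.1 CPM against at most 0.684 and 0.645 CPM, and for 8 interferon response genes replicates 1 and 4 had 424 and 568 CPM against 79.3 to 142 CPM. In AAV206-GFP replicate 4, 4 Y-linked genes summed to 114 CPM, against 226 to 246 CPM in the other 9 libraries. The sources give no sex and do not state whether each library is 1 retina, and the reason was not tested. Markers of the labelled tissue were detected, and Pax6, Tfap2b and Prox1, transcription factors of amacrine cells among others, were at 300.1 ± 5.70, 159 ± 8.04 and 181 ± 18.8 CPM with AAV2-GFP (SD, n = 5).

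The regions before the start sites of 3 members are shown because they belong to the acetylcholine genes with the largest and the smallest difference between the vectors and to the least abundant member. They were read from RefSeq (GRCm38.p6), 5′ to 3′ on the gene's strand, as bases within 100 of the RefSeq start that lie in no annotated exon. Capitals mark a match to the cyclic AMP response element.
Slc5a7 (chr17:54299035-54299134, minus strand): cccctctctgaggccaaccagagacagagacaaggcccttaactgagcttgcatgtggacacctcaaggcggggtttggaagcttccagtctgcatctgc
Slc18a3 (chr14:32464851-32464950, minus strand): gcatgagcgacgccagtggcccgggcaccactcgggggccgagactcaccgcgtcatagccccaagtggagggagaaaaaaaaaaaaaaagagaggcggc
Th (chr7:142900015-142900095, minus strand): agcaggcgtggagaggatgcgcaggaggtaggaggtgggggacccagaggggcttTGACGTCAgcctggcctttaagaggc

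RefSeq start windows were matched for all 9 members, 12 windows in all, and 3 motifs were searched on both strands in the 100 bases before each start. The cyclic AMP response element (TGACGTCA) was found in 1 of the 12 windows, that of Th, and in 1.15% of all 32851 windows. The GC box (GGGCGG) was found in 2 of the 12, those of Gad1 and Slc6a9, against 24.7% of all windows, and the TATA box (TATAAA) in 0 of the 12, against 5.56%. Such matches are letters in a window and not measured binding sites.

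The position of each gene, from GENCODE M21 on GRCm38, shows which members share a locus. Gad1 (ENSMUSG00000070880, chr2:70553072-70602014), Gad2 (ENSMUSG00000026787, chr2:22622205-22693874) and Slc32a1 (ENSMUSG00000037771, chr2:158610767-158615748) lie far apart on chromosome 2. Slc6a9 (ENSMUSG00000028542) is at chr4:117834506-117875198, Slc6a5 (ENSMUSG00000039728) at chr7:49910146-49963856, Th (ENSMUSG00000000214) at chr7:142892752-142931128 and Slc5a7 (ENSMUSG00000023945) at chr17:54273590-54299034. Slc18a3 (ENSMUSG00000100241, chr14:32462438-32464850) lies inside the span of Chat (ENSMUSG00000021919, chr14:32408203-32465989) on the same strand. The annotated exons of Chat and Slc18a3 share 0 bases, and neither gene had a decimal in its estimated counts. Slc6a9 was the exception among the 9, with decimals in all 10 libraries. Its exons share 1429 bases (27.8%) with those of Ccdc24 on the opposite strand, a gene with 1927.95 to 2480.85 counts per library, and the strand setting of the counting is not given. The level of Slc6a9 is therefore uncertain.

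All 9 members passed the filter on low counts, and 0 of them differed between the vectors at an adjusted p under 0.05 in edgeR's quasi-likelihood test. Over all 15539 tested genes, 11.2% passed that threshold (5.95% higher and 5.3% lower with AAV206-GFP). At an unadjusted p under 0.05, 2 members (Gad2 and Slc5a7) passed, where 28% of all genes did. DESeq2 called the same 2 members, both higher with AAV206-GFP, and limma-voom called 0. Over all genes DESeq2 also called more, 1182 higher and 1072 lower, against 924 and 823 with edgeR and 902 and 741 with limma-voom. No member had groups that did not overlap, against 9.78% of all genes. The median log2 fold change of the 9 was 0.034 and the median of its absolute value was 0.065, against -0.0095 and 0.16 over all tested genes. In bulk tissue, fewer amacrine cells and less RNA per cell cannot be told apart.

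**Figure D1:**
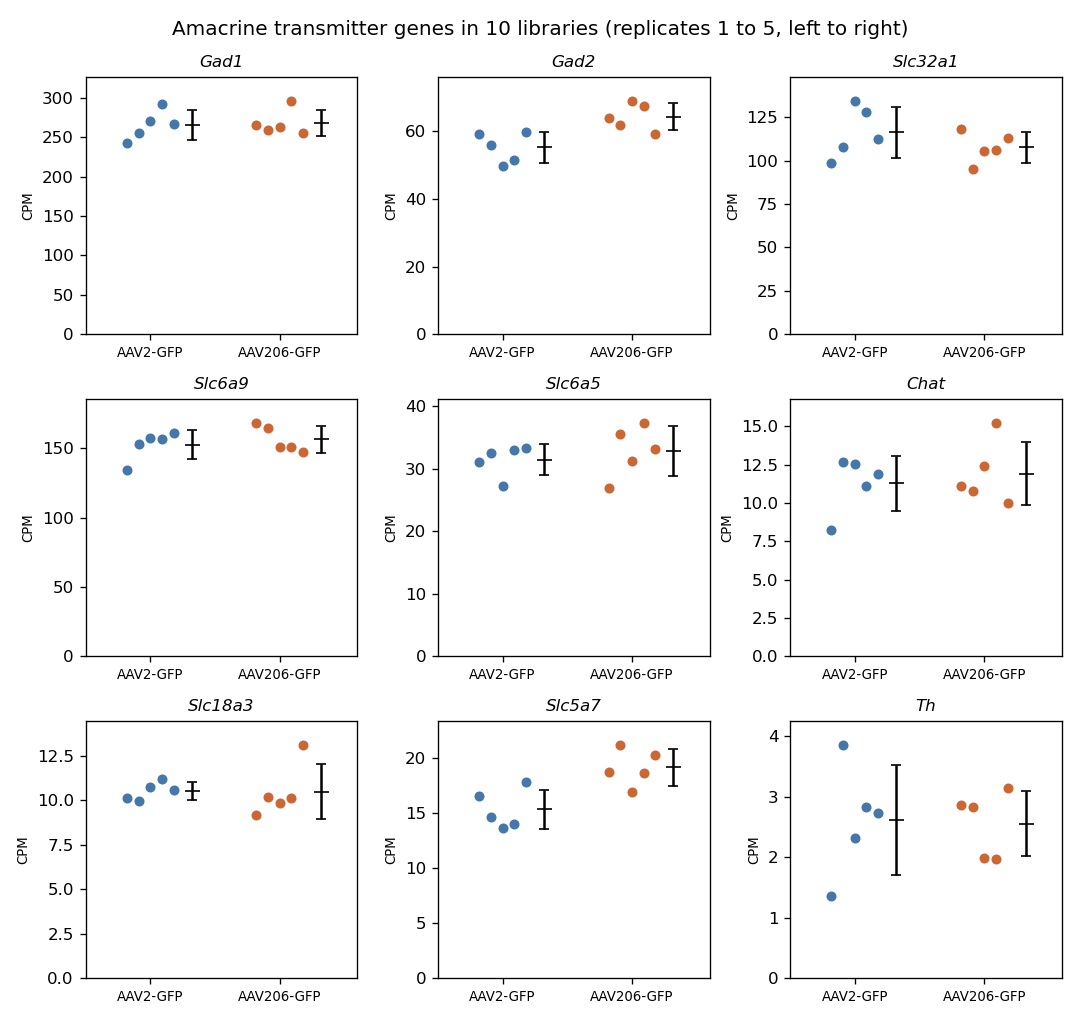
CPM of each of the 9 genes in the 10 libraries (points, replicates 1 to 5 from left to right within each group), with the group mean and SD (n = 5) as a black bar, on axes that start at 0. The groups overlap in all 9 panels, and Slc5a7, which has the largest log2 fold change of the 9, lies at 13.7 to 17.9 against 16.9 to 21.3 CPM.

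Gad1 encodes GAD67, the decarboxylase behind most basal GABA synthesis. It was at 242, 256, 270.4, 293 and 266 CPM in AAV2-GFP replicates 1 to 5 and at 265, 259, 263, 296 and 256 CPM in AAV206-GFP replicates 1 to 5. The groups covered nearly the same range. The means were 265 ± 18.7 and 268 ± 16.4 CPM (SD, n = 5), with log2 fold change 0.013 (SE 0.064, adjusted p = 0.919 in edgeR). The 95% interval of the fold ran from 0.919 to 1.11.

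Gad2 encodes GAD65, the form tied to synaptic terminals. It was at 59.2, 55.9, 49.9, 51.5 and 59.8 CPM with AAV2-GFP and at 63.9, 61.8, 69.1, 67.4 and 59.4 CPM with AAV206-GFP, in the order of the replicates. Only AAV206-GFP replicate 5, the lowest of its group, fell within the AAV2-GFP range. The means were 55.2 ± 4.47 and 64.3 ± 3.98 CPM (SD, n = 5), with log2 fold change 0.22 (SE 0.070, 95% interval 0.071 to 0.37). Gad2 missed the threshold (adjusted p = 0.0542 in edgeR), and its adjusted p lay between 0.0387 and 0.158 over the 19 alternatives. It passed with DESeq2 (0.0387), with upper-quartile scaling (0.0471) and without AAV2-GFP replicate 1 (0.0459) or AAV206-GFP replicate 5 (0.0421).

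Slc32a1 encodes VGAT, which loads GABA and glycine into vesicles. Its level was 98.8, 108, 135, 128 and 112 CPM with AAV2-GFP and 118, 95.2, 105, 106 and 113 CPM with AAV206-GFP. The AAV2-GFP libraries were the more scattered, and their range held 4 of the 5 AAV206-GFP values. For Slc32a1 the log2 fold change came to -0.11 (SE 0.084, adjusted p = 0.407 in edgeR), and the 95% interval of the fold ran from 0.817 to 1.05.

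The balance of the 2 decarboxylases was compared within libraries, as the log2 ratio of Gad2 to Gad1 (each as CPM + 0.5). With AAV2-GFP it was -2.02, -2.18, -2.43, -2.50 and -2.15, and with AAV206-GFP -2.04, -2.06, -1.92, -2.13 and -2.10. All AAV206-GFP libraries lay above 4 of the 5 AAV2-GFP libraries, and AAV2-GFP replicate 1 lay among them. The difference of 0.20 missed the threshold (exact permutation test, two-sided, n = 5 and 5, p = 0.0714, adjusted over 4 gene pairs 0.286), where the smallest p the design allows is 0.00794. Without AAV2-GFP replicate 1 the difference was 0.26 (exact permutation p = 0.00794, adjusted 0.0317). This was the only 1 to pass of 10 permutation tests without a single library, where the adjusted p ran up to 0.508. Of 4 other alternatives 0 passed (adjusted permutation p from 0.0714 to 0.5).

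**Figure D2:**
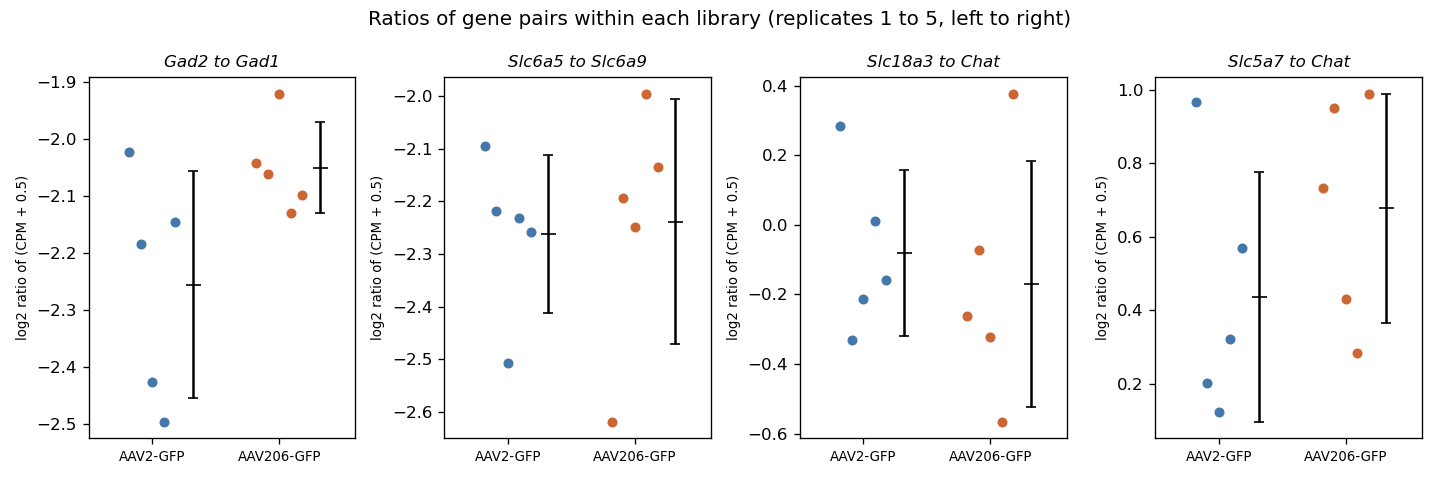
Log2 ratio of 4 gene pairs in each library (points, replicates 1 to 5 from left to right), with the group mean and SD (n = 5) as a black bar; the vertical axes do not start at 0 because the values are log ratios. For Gad2 to Gad1 the AAV206-GFP libraries lie between -2.13 and -1.92, and the AAV2-GFP libraries spread from -2.50 to -2.02.

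Other genes that handle GABA were taken from a list of 10, all tested. Of these 1 rose with AAV206-GFP and 0 fell. Slc6a13, which encodes the GABA transporter GAT2, a carrier best known from meninges, liver and kidney, was at 1.36, 0.719, 1.39, 0.484 and 0.598 CPM with AAV2-GFP. With AAV206-GFP it was at 5.22, 1.82, 3.36, 1.44 and 2.63 CPM, so every library lay above the AAV2-GFP range, the nearest pair at 1.44 and 1.39 CPM. Its log2 fold change was 1.66 (SE 0.396, adjusted p = 0.0147 in edgeR, range over its 19 alternatives 0.00147 to 0.0458). These levels rest on 6 to 62 counts per library. Slc6a13 met the filter on low counts only by way of the AAV206-GFP libraries, where it is high. Fitted without the filter, it had log2 fold change 1.66 (adjusted p = 0.0095 in edgeR). The summed level of 5 erythrocyte markers also lay higher with AAV206-GFP, at 101 to 319 against 67.8 to 85.8 CPM, and its part in the Slc6a13 result was not tested. Slc6a11, which encodes the GABA transporter GAT3, did not pass, with log2 fold change 0.042 (adjusted p = 0.710 in edgeR). Aldh5a1, which acts in GABA breakdown, was at 37.4 ± 3.91 and 44.5 ± 3.85 CPM (SD, n = 5), and its log2 fold change of 0.25 missed the threshold (adjusted p = 0.0702 in edgeR).

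Slc6a9 encodes GlyT1, the uptake transporter that marks glycinergic amacrine cells in the retina. It was at 135, 153, 158, 157 and 161 CPM with AAV2-GFP and at 169, 165, 151, 151 and 147 CPM with AAV206-GFP. AAV2-GFP replicate 1 was the lowest of all 10 libraries, and the other 9 overlapped. Between the vectors Slc6a9 had log2 fold change 0.034 (SE 0.065, adjusted p = 0.767 in edgeR), and the 95% interval of the fold ran from 0.931 to 1.13. Ccdc24, which may share its reads, had log2 fold change -0.019 (adjusted p = 0.894 in edgeR).

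Slc6a5 encodes GlyT2, the glycine transporter typical of spinal and brainstem glycinergic neurons. It was at 31.1, 32.5, 27.3, 33.0 and 33.3 CPM with AAV2-GFP and at 27.0, 35.6, 31.3, 37.4 and 33.2 CPM with AAV206-GFP. The AAV206-GFP values surrounded those of AAV2-GFP on both sides. Slc6a5 had log2 fold change 0.065 (SE 0.092, adjusted p = 0.686 in edgeR), with a 95% interval of the fold from 0.913 to 1.20. The log2 ratio of Slc6a5 to Slc6a9 was -2.26 ± 0.151 and -2.24 ± 0.233 (SD, n = 5), a difference of 0.023 (exact permutation test, two-sided, p = 0.849, adjusted 0.849).

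Of 8 listed genes of glycine supply and breakdown, 6 were tested and 0 passed with edgeR, nor did any reach an unadjusted p under 0.05. Their log2 fold changes ran from -0.31 for Shmt1, which makes glycine from serine in the cytosol at 2.07 ± 0.523 CPM with AAV2-GFP (SD, n = 5), to 0.19 for Gcsh, a subunit of the glycine cleavage system. Slc7a10 and Slc38a5 were too low to be tested, with at most 4 and 13 counts in any library.

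Chat encodes choline acetyltransferase, the enzyme that makes acetylcholine in starburst amacrine cells. It was at 8.23, 12.7, 12.5, 11.1 and 11.9 CPM with AAV2-GFP and at 11.1, 10.8, 12.4, 15.3 and 10.01 CPM with AAV206-GFP. The lowest library was AAV2-GFP replicate 1 and the highest AAV206-GFP replicate 4, with the other 8 in a common range. Chat had log2 fold change 0.076 (SE 0.147, adjusted p = 0.773 in edgeR), and the 95% interval of the fold ran from 0.849 to 1.31. Without AAV2-GFP replicate 1 it was -0.017, and without AAV206-GFP replicate 4 it was -0.029, so the direction rested on each of these libraries.

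Slc18a3 encodes VAChT, which loads acetylcholine into vesicles. It was at 10.1, 9.97, 10.7, 11.2 and 10.6 CPM with AAV2-GFP and at 9.17, 10.2, 9.83, 10.1 and 13.1 CPM with AAV206-GFP. AAV206-GFP replicate 5 was high, and the other 9 libraries lay within 9.17 to 11.2 CPM. Its log2 fold change was -0.0046 (SE 0.124, adjusted p = 0.986 in edgeR), the smallest in size among the 9, and it turned to 0.0052 with upper-quartile scaling. The 95% interval of the fold ran from 0.831 to 1.20.

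Slc5a7 encodes the high-affinity choline transporter, which recovers choline at cholinergic terminals. It was at 16.5, 14.6, 13.7, 14.04 and 17.9 CPM with AAV2-GFP and at 18.8, 21.3, 16.9, 18.7 and 20.3 CPM with AAV206-GFP. AAV2-GFP replicate 5 and AAV206-GFP replicate 3 overlapped, and the remaining libraries were ordered by vector. The means were 15.4 ± 1.78 and 19.2 ± 1.68 CPM (SD, n = 5), with log2 fold change 0.32 (SE 0.106, 95% interval 0.098 to 0.55). Slc5a7 also missed the threshold (adjusted p = 0.0592 in edgeR), and its adjusted p lay between 0.0419 and 0.148 over the 19 alternatives. It passed with DESeq2 (0.0419) and without AAV2-GFP replicate 1 (0.0497) or AAV2-GFP replicate 5 (0.0431).

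The 3 acetylcholine genes were also set against each other within libraries. The log2 ratio of Slc5a7 to Chat was 0.97, 0.20, 0.12, 0.32 and 0.57 with AAV2-GFP and 0.73, 0.95, 0.43, 0.28 and 0.99 with AAV206-GFP. The groups overlapped widely, and the difference of 0.24 did not pass (exact permutation test, two-sided, n = 5 and 5, p = 0.278, adjusted 0.556). The log2 ratio of Slc18a3 to Chat differed by -0.088 (exact permutation test, two-sided, p = 0.643, adjusted 0.849). AAV2-GFP replicate 1 was the highest of its group in both ratios, where its low Chat level enters as the denominator.

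Of 6 listed genes for the breakdown of acetylcholine and the supply of choline, 5 were tested. None passed with edgeR, and 0 reached an unadjusted p under 0.05. The 5 log2 fold changes ran from 0.030 to 0.47, and every 95% interval held 0. Ache, the acetylcholinesterase, was at 74.7 ± 6.15 and 84.6 ± 10.6 CPM (SD, n = 5), with log2 fold change 0.18 (SE 0.086, adjusted p = 0.184 in edgeR). The low-affinity choline transporters Slc44a1 and Slc44a2 were at log2 fold changes 0.16 and 0.12 (adjusted p = 0.300 and 0.527 in edgeR). In the fit without AAV206-GFP replicate 1, its lowest library at 85.6 CPM, Slc44a1 passed as higher. Slc44a1 carried decimals in all 10 libraries.

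Th encodes tyrosine hydroxylase, the rate-limiting enzyme of dopamine synthesis. It was at 1.36, 3.86, 2.32, 2.82 and 2.73 CPM with AAV2-GFP and at 2.86, 2.83, 1.98, 1.97 and 3.14 CPM with AAV206-GFP, from 15 to 43 counts per library. The AAV2-GFP group held both the lowest and the highest library. Th had log2 fold change -0.034 (SE 0.275, adjusted p = 0.954 in edgeR). The 95% interval of the fold ran from 0.652 to 1.46, the widest among the 9.

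Of 11 listed genes for the making, storage, uptake and breakdown of dopamine and its receptor Drd2, 8 were tested and 0 passed with edgeR. At an unadjusted p under 0.05 there was 1, Spr, an enzyme of the tetrahydrobiopterin cofactor of Th. It was at 23.3 ± 3.56 and 18.7 ± 2.78 CPM (SD, n = 5), with log2 fold change -0.32 (SE 0.124, adjusted p = 0.102 in edgeR). The vesicular monoamine transporter Slc18a2 was at log2 fold change 0.18 (adjusted p = 0.423 in edgeR). Ddc and Slc6a3, which complete and recapture dopamine, were too low to be tested, with 2 to 17 and 0 to 3 counts per library. Gch1, the first enzyme of the same cofactor, was also under the filter, at 6 to 27 counts. Its levels were 1.27, 1.62, 1.16, 2.18 and 0.854 CPM with AAV2-GFP and 0.589, 0.638, 0.776, 0.538 and 0.848 CPM with AAV206-GFP. These groups did not overlap, although replicate 5 of each group had 10 counts. Fitted without the filter, Gch1 had log2 fold change -1.05 (SE 0.422, adjusted p = 0.147 in edgeR). It passed, as lower, in the fit without AAV2-GFP replicate 5. There it met the filter only through the remaining AAV2-GFP libraries, where it is high, at 14, 18, 15 and 27 counts. That call is therefore no support for a difference.

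Across the 37 pathway genes, 31 were tested with edgeR, and Slc6a13 was the 1 that passed. At an unadjusted p under 0.05 there were 4, namely Slc6a13, Aldh5a1, Slc38a3 and Spr. Over all tested genes 11.2% were called and 28% had an unadjusted p under 0.05, so the pathway genes were not called more often than genes at large. DESeq2 called Slc6a13 higher and Slc38a3, a glutamine transporter, lower, and limma-voom called Slc6a13. The plot of fold changes shows the intervals. Slc17a8, the vesicular glutamate transporter of a glutamatergic amacrine type, and Slc30a3, a vesicular zinc transporter, were tested as well and were each at log2 fold change -0.15 (adjusted p = 0.686 and 0.777 in edgeR).

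**Figure D3:**
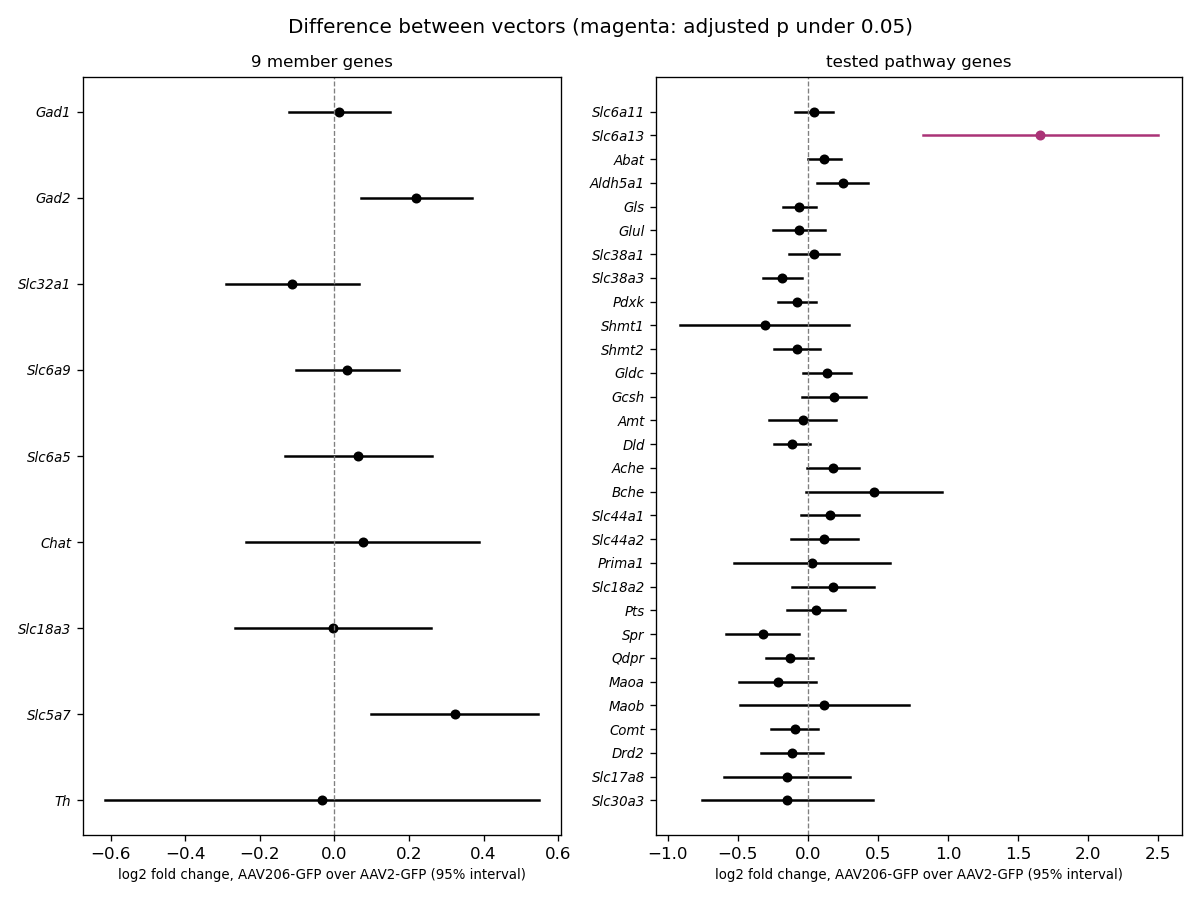
Log2 fold change of AAV206-GFP over AAV2-GFP (points) with 95% intervals (lines) for the 9 member genes (left) and tested pathway genes (right), with genes past an adjusted p of 0.05 in magenta. Gad2 and Slc5a7 have intervals above 0 but missed the adjusted threshold, and Slc6a13 is the gene past it.

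The amacrine cell markers outside the 9 members were counted in the same fit. Of 14 general amacrine markers, all tested, 0 were higher and 1 was lower with edgeR, and 2 had an unadjusted p under 0.05. Over all tested genes 5.3% were lower and 28% had an unadjusted p under 0.05, so 1 of 14 is near the background and says nothing particular of amacrine markers. The gene that fell was Bhlhe22, a transcription factor of amacrine and bipolar subtypes. It was at 37.9, 37.8, 45.2, 42.8 and 44.7 CPM with AAV2-GFP and at 33.7, 36.6, 32.7, 27.7 and 29.3 CPM with AAV206-GFP, without overlap. Bhlhe22 had log2 fold change -0.38 (SE 0.087, adjusted p = 0.0116 in edgeR, range over its 19 alternatives 0.00164 to 0.0383). Of 8 bipolar markers 1 was lower as well, with summed levels of 1048 to 1396 and 918 to 1423 CPM, and their part in the Bhlhe22 result was not tested. Barhl2, which specifies amacrine and ganglion cells, was at log2 fold change -0.32 (adjusted p = 0.0909 in edgeR). Of the 14 markers 5 had a positive log2 fold change, the largest being Neurod6 at 0.89 (adjusted p = 0.179 in edgeR). Neurod6 was low, at 0.643 ± 0.372 and 1.20 ± 0.484 CPM (SD, n = 5). None of 6 starburst markers, 4 markers of the AII type and 2 tested dopaminergic markers passed with edgeR, and of these 12 only 1 had an unadjusted p under 0.05. The starburst genes Megf10 and Megf11 were at log2 fold changes -0.077 and 0.12 (adjusted p = 0.635 and 0.431 in edgeR). The summed level of the 14 general markers was 856 to 923 CPM with AAV2-GFP and 840.4 to 900.2 CPM with AAV206-GFP. Horizontal cells, which also use Gad1 and Slc32a1, had 0 of 6 markers past the threshold with edgeR, and 1 at an unadjusted p under 0.05.

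Single libraries stood out across several members. AAV2-GFP replicate 1, the library high in microglia and lymphocyte markers, was the lowest of all 10 libraries for 4 members (Gad1, Slc6a9, Chat and Th) and the highest for 0. Its difference from the mean of the remaining 4 AAV2-GFP libraries was -10.7% for Gad1, -18.1% for Slc32a1, -14.4% for Slc6a9, -31.7% for Chat and -53.8% for Th. The other 4 members did not share this. The difference was 9.15% for Gad2, 9.90% for Slc5a7, -1.36% for Slc6a5 and -4.75% for Slc18a3. The part of the immune markers in these levels was not tested. AAV206-GFP replicate 4, the library low in Y-linked genes, was the highest of all 10 for 3 members, Gad1, Slc6a5 and Chat. Its Chat level was 37.7% above the mean of its 4 group mates, its Slc6a5 level 17.8% and its Gad1 level 13.7%. The remaining members did not share this. Their difference was 6.04% for Gad2, -1.78% for Slc32a1, -4.52% for Slc6a9, -4.28% for Slc18a3, -3.40% for Slc5a7 and -27.0% for Th. With AAV2-GFP replicates 1 and 4 left out together, 0 members passed with edgeR, and the log2 fold changes of Gad2 and Slc5a7 came to 0.21 and 0.31 (adjusted p = 0.158 and 0.148 in edgeR).

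**Figure D4:**
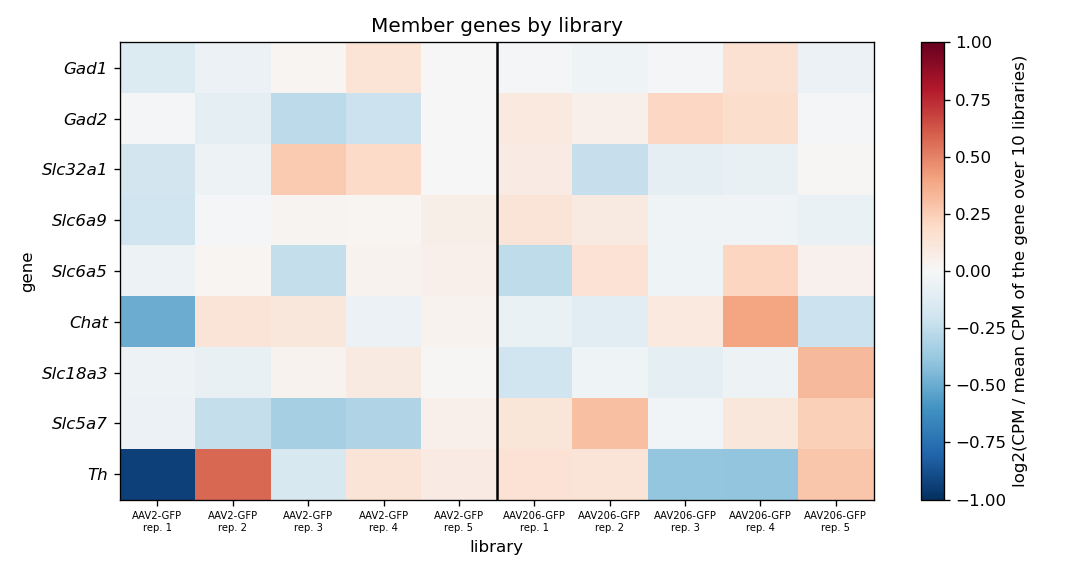
Level of each of the 9 genes (rows) in each library (columns), as log2 of its CPM over the gene's mean in all 10 libraries, red for higher and blue for lower. The deepest blue is Th in AAV2-GFP replicate 1 (-0.93), followed by Chat in the same library (-0.50), and no row changes colour completely at the line between the groups.

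The spread between libraries exceeded that expected from counting alone in both groups for each member but Slc18a3. For Gad1 the coefficient of variation was 7.03% and 6.10% with AAV2-GFP and AAV206-GFP, against 1.78% and 1.80% from counting. For Th, the member with the fewest counts, it was 34.6% and 21.2%, against 17.96% and 18.4%. For Slc18a3 it was 4.73% with AAV2-GFP, under the 8.94% from counting, and 14.6% with AAV206-GFP, where replicate 5 was high, against 9.11%.

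Levels of different genes were compared per length, as CPM per kilobase of annotated exon. The order was the same with both vectors: Slc32a1, Gad1, Slc6a9, Gad2, Slc6a5, Slc18a3, Slc5a7, Chat and Th. Slc32a1 was at 41.6 ± 5.24 and Gad1 at 34.8 ± 2.44 CPM per kilobase with AAV2-GFP (SD, n = 5), and over the 10 libraries their ranges overlapped. So did those of Gad1 and Slc6a9 (29.7 ± 2.05), of Slc6a5 and Slc18a3 (4.37 ± 0.343 and 4.36 ± 0.206), and of Slc5a7 and Chat (2.72 ± 0.316 and 2.40 ± 0.386). The ranges of Slc6a9 and Gad2 (9.40 ± 0.762) lay well apart, at no less than 26.2 and no more than 11.8 CPM per kilobase, and those of Gad2 and Slc6a5 did not overlap. The ranges of Slc18a3 and Slc5a7 nearly touched, at 3.80 and 3.77, as did those of Chat and Th (1.11 ± 0.383), at 1.75 and 1.63. On this scale the genes of GABA and of glycine uptake by GlyT1 stood above those of acetylcholine and dopamine. Exon length was taken over all annotated transcripts, which can understate genes with several transcripts. This holds for high and low places alike, such as Slc6a9 with 12, Gad1 with 8, Chat with 8 and Th with 6. The place of Slc6a9 is also uncertain because its exons overlap those of Ccdc24.

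The genes whose levels followed the 9 members most closely over the 10 libraries were Gm19716, Gal3st3, Grin1, Adra2a and Gm14295, out of 11903 genes searched with a mean of at least 5 CPM. Likeness was the Pearson correlation of log2(CPM + 0.5) with the mean of the standardised levels of the 9 members. It was 0.96, 0.93, 0.90, 0.88 and 0.87, with Spearman values of 0.87, 0.79, 0.75, 0.72 and 0.64. Without the 2 libraries farthest from the median, AAV2-GFP replicate 1 and AAV206-GFP replicate 4, the Pearson values were 0.78, 0.63, 0.63, 0.57 and 0.43, so much of the likeness rested on these 2. Being the best of many, they are given as a description. Grin1 encodes the obligatory NMDA receptor subunit and Adra2a an adrenergic receptor.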

How the data were processed

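The deposited values are estimated counts per gene for 10 mouse retina libraries, unscaled, and STAR 2.7.10b, RSEM 1.3.1 and the build mm10 are named per the submitters' processing notes, without their roles. Per the labels' protocols, RNA was extracted with Trizol and sequenced as read pairs of 150 bases. Decimals were present in 5.95% of values, so counts were rounded. Groups and replicate numbers came from the sample labels.

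Genes were filtered with filterByExpr (minimum count 10), scaled by TMM and tested with the quasi-likelihood F test of edgeR 4.0.16 (R 4.3.3), with the vector as the only term. Benjamini-Hochberg adjustment ran over all 15539 tested genes, at a threshold of 0.05. Positive log2 fold changes mean higher with AAV206-GFP, standard errors come from the F statistic, and 95% intervals from its degrees of freedom. Ratios of gene pairs (pseudocount 0.5 CPM) used exact two-sided permutation tests over 252 relabellings, adjusted over 4 pairs. Alternatives covered scaling, filters, DESeq2 1.42.0, limma-voom (limma 3.58.1), the replicate number as a block and left-out libraries.

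The 9 members, the lists and the tests were chosen with earlier results of these data known. All 9 members are named, with pathway genes past the threshold, up to 3 others per list and the 5 most alike genes. Slc38a3, the untested pathway genes and the markers were named after their values were seen. One pathway gene, included in the counts, is not reported here by name or in the figures. Gene names came from GENCODE M21, which named 98.4% of tested genes. Within groups, libraries differed by 3.69 to 22.3 in chi-square per degree of freedom, so none repeated the sequencing of another. Such values cannot show whether libraries came from the same RNA or the same mouse. The series' design gives 5 mice per group; whether each library is 1 retina is not stated, so p-values measure the spread between these libraries. The procedure was tested on simulated data.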

Additional observations from a re-analysis of the deposited data

Results flagged for a closer look

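Dixon's ratio, the distance of an extreme library from its closest neighbour divided by the full range, was computed for 11 genes and 4 gene pairs in both groups. It was above 0.71 in 2 of 30 groups, where chance gives 1.5. AAV206-GFP replicate 4 had 296 CPM of Gad1, while its group mates had 256 to 265 CPM (ratio 0.772). AAV206-GFP replicate 5 had 13.1 CPM of Slc18a3, while its group mates had 9.17 to 10.2 CPM (ratio 0.737).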

How the results depend on the processing

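Of the counts of members, the number called higher with AAV206-GFP was 0 with edgeR, 1 with upper-quartile scaling and 2 with DESeq2, and from 0 to 2 when single libraries were left out. It was 2 without AAV2-GFP replicate 1 (Gad2 and Slc5a7), 1 without AAV2-GFP replicate 5 (Slc5a7) and 1 without AAV206-GFP replicate 5 (Gad2). The number called lower was 0 in all fits run. Among pathway genes, the number called higher ran from 1 to 2 and the number called lower from 0 to 1 over the fits without 1 library. Besides Slc6a13, Slc44a1 was called higher without AAV206-GFP replicate 1 and Aldh5a1 without AAV206-GFP replicate 5. DESeq2 called 1 lower (Slc38a3). Slc6a13 and Bhlhe22 passed in all 19 alternatives. For Slc6a13, alternatives that kept a filter on low counts share its entry by way of the AAV206-GFP libraries, where it is high. Those fits are therefore no separate support for its difference. In the alternative without the filter its adjusted p was 0.0095 in edgeR. Over all genes, 924 higher and 823 lower calls became 1009 and 755 with upper-quartile scaling and 1182 and 1072 with DESeq2. They became 530 and 455 without AAV2-GFP replicates 1 and 4 together. Among fits without single libraries they were highest, at 1002 and 910, without AAV2-GFP replicate 1, the fit that called Gad2 and Slc5a7. They ranged from 560 to 1002 and from 431 to 910 without single libraries, at 560 and 431 without AAV2-GFP replicate 4, 603 and 471 without AAV206-GFP replicate 2, 611 and 445 without AAV206-GFP replicate 4, and 511 lower without AAV206-GFP replicate 3. With the replicate number as a block they were 605 and 480, and 0 members passed. Deviations of same-numbered libraries correlated between -0.042 and 0.033, and 0 of 5 libraries correlated best with their own number, so the numbers were not taken as pairs. Some log2 fold changes changed sign. Slc18a3 was at 0.0052 with upper-quartile scaling and 0.0012 without AAV2-GFP replicates 1 and 4, where Slc6a9 was at -0.016 and Chat at -0.061, and Th was at 0.015 with limma-voom. Without single libraries Gad1 ran from -0.026 to 0.050, Slc6a9 from -0.0070 to 0.057, Chat from -0.029 to 0.13, Slc18a3 from -0.097 to 0.041 and Th from -0.19 to 0.14. The difference in ratio ran from 0.14 to 0.26 for Gad2 to Gad1, from -0.038 to 0.12 for Slc6a5 to Slc6a9, from -0.22 to 0.011 for Slc18a3 to Chat and from 0.16 to 0.37 for Slc5a7 to Chat. For Slc18a3 to Chat it was 0.064 without AAV2-GFP replicates 1 and 4. The cause was not tested.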
